A study of Homo sapiens with 6 samples.

Results

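The transcripts described here are those of 30 genes of cholesterol metabolism, out of the 60708 gene identifiers counted in the series. They were taken by symbol from a list that covers the enzymes of sterol synthesis, the factors that sense sterols, and the proteins that move, store or export cholesterol, and all 30 had a row in the count files. RNA sequencing was carried out on wild-type U2OS, a long-established cell line from a human osteosarcoma, kept in DMEM with fetal bovine serum. The 3 control cultures received DMSO, the solvent. The 3 treated cultures, called PARGi, received 25 µM of PDD00017273, a compound that blocks PARG, the hydrolase that trims poly(ADP-ribose) chains from proteins. Both treatments lasted 4 days, and the design text calls the replicates biological. A single line, inhibitor, dose and time were used, so effects through PARG and other effects of the compound cannot be told apart. In bulk RNA, a change in the share of cells that express a gene and a change of its RNA per cell cannot be told apart either.

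Cholesterol is built from acetyl-CoA through mevalonate, isoprenoid pyrophosphates, squalene and lanosterol. The genes of this route are targets of the transcription factor SREBP2, encoded by SREBF2, which is held in the endoplasmic reticulum by SCAP and the INSIG proteins while sterols are plentiful and is cleaved and released when they are scarce. Cells with surplus sterol form oxysterols, which activate the nuclear receptors LXR. These in turn drive the export pumps ABCA1 and ABCG1, the ubiquitin ligase MYLIP, which removes lipoprotein receptors, and SREBF1, whose product favours fatty acid synthesis.

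Promoter windows were read from RefSeq (GRCh38.p14, 250 bases before to 50 bases after the start of a gene), and 26 of the 30 members were matched. The sterol regulatory element, the site SREBP proteins bind, was searched as TCACNCCAC, and the box of its partner factor NF-Y as CCAAT, each on both strands. TCACNCCAC was in 1 member window, that of SREBF2, and in 1.13% of all 35116 windows. The SREBF2 match began 133 bases before the start. CCAAT was in 18 of the 26 member windows (69.2%), against 34.6% of all windows and 36% of the 13014 windows of genes tested below. It was in 11 of the 14 matched members that were higher in PARGi and in 7 of the 12 others. Neither motif was in the windows of IDI1, INSIG2 and NPC1, which were higher. Of the matched members that were lower, MYLIP had 2 CCAAT boxes, and SREBF1 and ABCA1 had neither motif. The E-box CACGTG was in 5 member windows (7.26% of all windows) and GGGCGG, the core of an SP1 site, in 25 (45% of all windows and 66.9% of those of tested genes). The 250 bases upstream of 4 genes are shown, 5′ to 3′ on the strand of the gene, with each TCACNCCAC or CCAAT match on either strand in capitals. They are SREBF2 (chr22:41832855-41833104, plus strand), the member with the TCACNCCAC match, MSMO1 (chr4:165327419-165327668, plus strand), with 4 NF-Y boxes, STARD4 (chr5:111512536-111512785, minus strand), the member that rose most, and ABCA1 (chr9:104928156-104928405, minus strand), the member that fell most, with neither motif.
SREBF2: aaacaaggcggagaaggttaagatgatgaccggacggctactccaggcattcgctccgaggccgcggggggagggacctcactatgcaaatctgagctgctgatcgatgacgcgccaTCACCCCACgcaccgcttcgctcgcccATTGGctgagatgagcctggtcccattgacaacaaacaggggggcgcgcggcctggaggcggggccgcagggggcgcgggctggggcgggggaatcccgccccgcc
MSMO1: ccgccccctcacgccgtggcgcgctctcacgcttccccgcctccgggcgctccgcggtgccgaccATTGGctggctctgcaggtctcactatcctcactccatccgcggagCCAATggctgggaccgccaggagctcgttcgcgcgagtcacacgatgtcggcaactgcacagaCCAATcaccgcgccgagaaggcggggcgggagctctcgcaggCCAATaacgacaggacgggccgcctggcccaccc
STARD4: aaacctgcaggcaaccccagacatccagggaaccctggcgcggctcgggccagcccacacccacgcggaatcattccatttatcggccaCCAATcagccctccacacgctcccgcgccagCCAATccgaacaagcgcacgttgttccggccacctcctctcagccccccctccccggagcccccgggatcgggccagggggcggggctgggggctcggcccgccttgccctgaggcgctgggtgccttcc
ABCA1: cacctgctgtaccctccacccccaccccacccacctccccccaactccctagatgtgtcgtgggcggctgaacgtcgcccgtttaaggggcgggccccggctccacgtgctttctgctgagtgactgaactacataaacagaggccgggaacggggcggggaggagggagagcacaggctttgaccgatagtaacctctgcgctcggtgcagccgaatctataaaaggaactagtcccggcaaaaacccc
A match of letters is a description of these windows and does not show that a factor binds there. The lack of a match does not show that a site is absent. Only these fixed strings were searched, and only in these windows, so variant sites or sites elsewhere would be missed.

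Each library held between 60286931 and 80605145 counts, and the scaling factors lay between 0.9953 and 1.007. Levels are in CPM, counts relative to the scaled library total, given with their SD over 3 libraries. Of the 6 mesenchymal markers, COL1A1 (4374 ± 268 CPM in DMSO), VIM, RUNX2, COL1A2 and ALPL were detected in every library, and TWIST1 was at or near 0. The 9 markers of epithelial, blood, endothelial and liver cells summed to between 7.26 and 8.24 CPM in a library, with CD3E and ALB at or near 0 and EPCAM the highest. Of the 9, CDH1 alone passed the test (from 0.718 ± 0.0247 to 1.14 ± 0.208 CPM in PARGi, edgeR adjusted p = 0.0104). Among the mesenchymal markers COL1A2 (12.98 ± 1.38 to 7.41 ± 0.685 CPM, edgeR adjusted p = 1.6e-08) and RUNX2 (83.3 ± 1.14 to 68.97 ± 0.606 CPM, edgeR adjusted p = 4.96e-08) fell and ALPL rose (4.68 ± 0.208 to 5.52 ± 0.437 CPM, edgeR adjusted p = 0.0364). Their part in the results below was not tested.

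All 30 genes had enough counts to be tested. In PARGi, 16 of them were higher and 4 lower than in DMSO, and 10 did not pass (edgeR quasi-likelihood test over 20409 genes, Benjamini-Hochberg adjusted p under 0.05). Over all tested genes the same rule called 24.3%, made up of 13.2% higher and 11% lower, against 53.3% and 13.3% of the members. The share of higher genes among all calls was 54.5% here and 40.5% with upper-quartile scaling, which left 14 members higher and 5 lower. The groups did not overlap for 21 members, 17 with all PARGi libraries above and 4 with all below, and for 38% of all tested genes (19.8% above and 18.2% below). The median log2 fold change of the members was 0.10, against -0.0070 over all tested genes. The median absolute log2 fold change was 0.13 for the members and 0.11 over all tested genes. The shares called were not matched for count, and well-counted genes can pass at smaller changes. The rises were small, from 5.91% for ACAT2 to 16.5% for STARD4. A larger absolute log2 change than that of ACAT2 was found for 59.7% of the tested genes, and than that of STARD4 for 26.8%. The largest changes were the falls of ABCA1 and ABCG1, each of more than 1.5-fold.

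**Figure D1:**
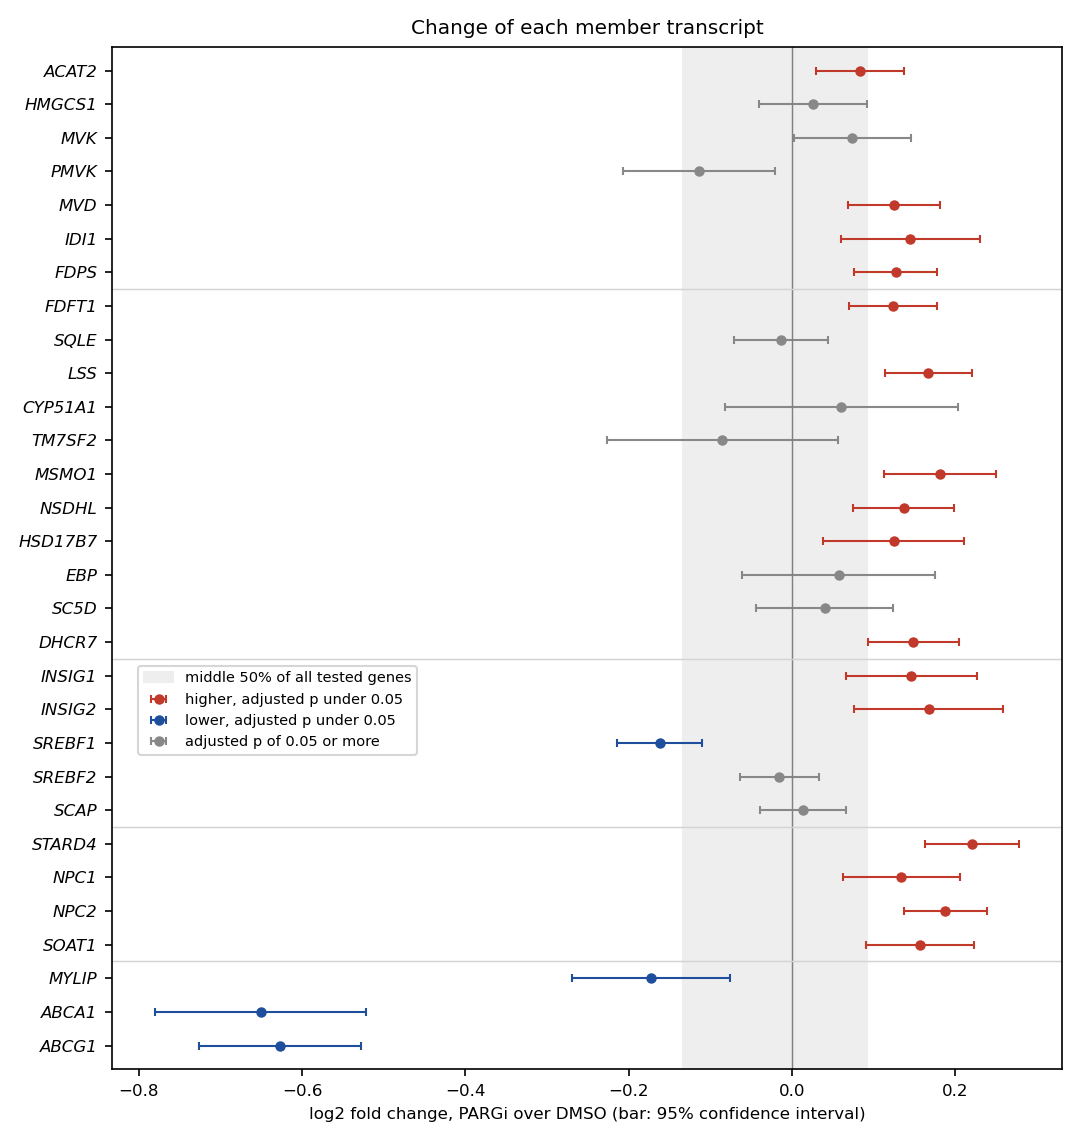
Log2 fold change of each member (x axis, PARGi over DMSO) with its 95% confidence interval, in order of the pathway from the first step of synthesis at the top to export at the bottom. Red points are higher, blue points lower, and grey points not past the adjusted p of 0.05; the shaded band holds the middle 50% of all tested genes, from -0.13 to 0.092. Of the 18 enzymes 15 lie right of 0, as do all 4 transport genes, up to 0.22 for STARD4, and ABCA1 and ABCG1 lie far to the left at -0.65 and -0.63.

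The first 7 enzymes lead from acetyl-CoA to farnesyl pyrophosphate, and 4 of them were higher in PARGi with none lower. The shares over all tested genes were 13.2% higher and 11% lower. FDPS, which makes farnesyl pyrophosphate, had 217, 212 and 211 CPM in DMSO and 233, 230.1 and 235 CPM in PARGi. No library of one group reached into the other (log2 change 0.13 with an SE of 0.025, adjusted p = 0.00043 by edgeR). For MVD, the decarboxylase that yields isopentenyl pyrophosphate, the values were 139, 131 and 139 CPM in DMSO and 151, 147 and 148 CPM in PARGi. Its PARGi libraries all lay above its DMSO libraries (log2 change 0.12 with an SE of 0.027, adjusted p = 0.0014 by edgeR). IDI1, the isomerase of isopentenyl pyrophosphate, stood at 46.8, 47.9 and 41.3 CPM in DMSO and 50.9, 49.2 and 50.03 CPM in PARGi. The groups were again apart, but the low DMSO replicate 3 carried part of the difference: the log2 fold change was 0.14 (SE 0.041, edgeR adjusted p = 0.0116) with it and 0.078 without it (edgeR adjusted p = 0.0926), and the call was also lost without PARGi replicate 1 (edgeR adjusted p = 0.0616). ACAT2, the cytosolic thiolase that joins 2 acetyl-CoA units, had 109, 109 and 106 CPM in DMSO and 114, 113 and 116 CPM in PARGi. This was the smallest called rise of the members (log2 change 0.083 with an SE of 0.026, adjusted p = 0.0218 by edgeR), and leaving out DMSO replicate 3, PARGi replicate 1 or PARGi replicate 3 ended the call (edgeR adjusted p = 0.0622, 0.0647 and 0.11), as did upper-quartile scaling.

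HMGCS1, the synthase that makes HMG-CoA, is a textbook SREBP2 target and did not pass. Its libraries held 218, 217 and 196 CPM in DMSO and 214, 212 and 217 CPM in PARGi, and the groups overlapped, with DMSO replicates 1 and 2 above every PARGi library and DMSO replicate 3 below them. The log2 fold change was 0.026 (95% confidence interval -0.040 to 0.092, edgeR adjusted p = 0.623). MVK, mevalonate kinase, had 35.8, 34.2 and 34.9 CPM in DMSO and 37.6, 36.2 and 36.8 CPM in PARGi, with the groups apart but the test not passed (log2 fold change 0.074, edgeR adjusted p = 0.127). PMVK, the next kinase, pointed the other way at 33.8, 29.2 and 33.7 CPM in DMSO and 29.7, 29.6 and 30.1 CPM in PARGi. DMSO replicate 2 lay with the PARGi libraries, and the log2 fold change of -0.11 missed the threshold (edgeR adjusted p = 0.0679). Without that library it was -0.18 and passed as lower (edgeR adjusted p = 0.000804).

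From farnesyl pyrophosphate to cholesterol, 6 of 11 enzymes were higher and none was lower, beside 13.2% and 11% of all tested genes. LSS, which closes squalene epoxide into the ring system of lanosterol, had 158, 151 and 155 CPM in DMSO and 173, 174 and 175 CPM in PARGi. The 3 PARGi libraries were close together and clear of DMSO (log2 change 0.17 with an SE of 0.026, adjusted p = 2.93e-05 by edgeR). MSMO1, the methylsterol oxidase that starts removal of the methyl groups at carbon 4, rose most of the enzymes, with 80.8, 79.4 and 72.4 CPM in DMSO and 87.5, 87.9 and 87.9 CPM in PARGi. Its DMSO libraries spread more widely than its PARGi libraries, yet all lay below them (log2 change 0.18 with an SE of 0.033, adjusted p = 0.000235 by edgeR), and the rise amounted to 13.4%. DHCR7, the last reductase of one branch of the route, had 176, 166 and 167 CPM in DMSO and 189.7, 188 and 187 CPM in PARGi. The groups did not overlap (log2 change 0.15 with an SE of 0.027, adjusted p = 0.000214 by edgeR).

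NSDHL, a dehydrogenase that acts in the same demethylation as MSMO1, stood at 61.8, 58.5 and 58.8 CPM in DMSO and 65.7, 64.5 and 66.6 CPM in PARGi. All PARGi libraries were above DMSO (log2 change 0.14 with an SE of 0.030, adjusted p = 0.0015 by edgeR). FDFT1, squalene synthase and the first enzyme committed to sterols, had 197, 198 and 191 CPM in DMSO and 217, 209 and 214 CPM in PARGi, again with separate groups (log2 change 0.12 with an SE of 0.026, adjusted p = 0.000925 by edgeR). HSD17B7, the ketoreductase of the demethylation steps, had 25.5, 25.03 and 23.2 CPM in DMSO and 26.1, 27.4 and 26.7 CPM in PARGi. This call was lost in 7 of 15 alternatives, the most of any member: the groups were apart (log2 change 0.12 with an SE of 0.042, adjusted p = 0.0317 by edgeR), but the adjusted p was 0.0685 with DESeq2 and 0.173, 0.143 and 0.086 with edgeR without DMSO replicate 3, PARGi replicate 2 and PARGi replicate 3. Its near-identical copy HSD17B7P2, which can share its reads, had 17.3% as many counts and did not pass (4.72 ± 0.358 to 4.22 ± 0.268 CPM, edgeR adjusted p = 0.196).

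Of the 5 enzymes of this stretch that did not pass, SQLE is the best known, as the squalene epoxidase that is a rate-controlling step. It held 311, 296 and 285 CPM in DMSO and 293, 294 and 296 CPM in PARGi, and the PARGi libraries lay inside the DMSO range (log2 fold change -0.014, 95% confidence interval -0.071 to 0.044, edgeR adjusted p = 0.775). That interval spans changes from -4.81% to 3.07%. SC5D, the sterol desaturase, EBP, the isomerase of the sterol ring double bond, TM7SF2, a sterol reductase, and CYP51A1, the lanosterol demethylase, had log2 fold changes of 0.040, 0.057, -0.085 and 0.061, all with overlapping groups and edgeR adjusted p-values from 0.411 to 0.585. CYP51A1 was counted at only 7.07 ± 0.252 CPM in DMSO. In GENCODE 29, 79.4% of its exonic bases are also exon of another gene on the same strand, AC000120.2, which had 0 counts in all 6 libraries. How reads in such shared exons were treated is not stated, so the level of CYP51A1 is uncertain.

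Summed over the 18 enzymes, the libraries held 1895, 1836 and 1790.2 CPM in DMSO and 1964, 1941 and 1971 CPM in PARGi. The ratio of the group means was 1.06, and the DMSO libraries (1840.4 ± 52.8 CPM) spread more than the PARGi libraries (1959 ± 15.4 CPM). DMSO replicate 3 was the lowest of its group for 15 of the 30 members and DMSO replicate 1 the highest for 20. In PARGi, replicate 2 was likewise the lowest for 15, and replicates 1 and 3 were each the highest for 13. Without DMSO replicate 3, 7 of the 18 enzymes passed as higher in place of 10, with ACAT2, IDI1 and HSD17B7 lost, and the median log2 fold change of the 18 was 0.078 in place of 0.10. Leaving out any other single library left between 8 and 10 enzymes higher.

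**Figure D2:**
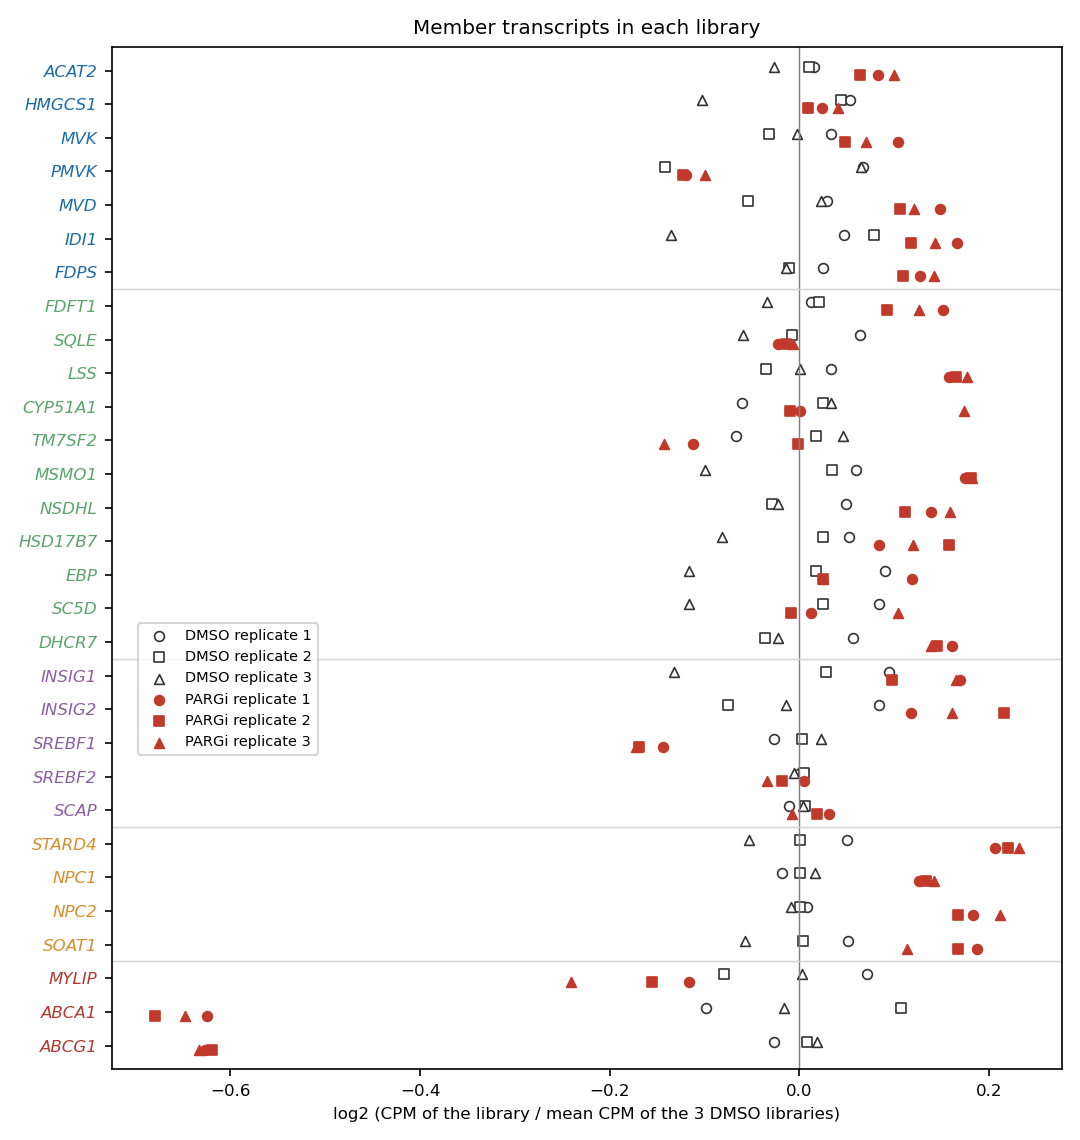
Level of each member in each library, as the log2 ratio of its CPM to the mean CPM of the 3 DMSO libraries (x axis), with open symbols for DMSO and filled red symbols for PARGi, and 1 shape per replicate number. For 21 of the 30 genes the open and filled symbols do not overlap, against 38% of all tested genes. The filled symbols of ABCA1 and ABCG1 lie near -0.6, and the open triangle, DMSO replicate 3, is often the leftmost of the open symbols.

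All 4 genes of sterol transport and storage were higher, beside 13.2% of all tested genes, with a median log2 fold change of 0.17. Each stayed past the threshold in all 15 alternative analyses. STARD4 (chromosome 5, 111496033 to 111512590, minus strand in GENCODE 29) encodes a soluble protein that shuttles sterol between membranes. It had 122, 118 and 113 CPM in DMSO and 136, 137 and 138 CPM in PARGi. The lowest PARGi library exceeded the highest DMSO library (log2 change 0.22 with an SE of 0.028, adjusted p = 2.07e-06 by edgeR), a 1.16-fold rise. NPC2, which hands cholesterol to NPC1 in the lysosome, had 164, 163 and 162 CPM in DMSO and 185, 183 and 189 CPM in PARGi. The spread within each group was a few CPM, far less than the gap (log2 change 0.19 with an SE of 0.025, adjusted p = 3.86e-06 by edgeR).

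NPC1, the lysosomal membrane protein that releases cholesterol from endocytosed lipoproteins, had 29.9, 30.3 and 30.6 CPM in DMSO and 32.99, 33.2 and 33.4 CPM in PARGi. These were among the tightest replicates of the members, and the groups were apart (log2 change 0.13 with an SE of 0.035, adjusted p = 0.00593 by edgeR). SOAT1, which esterifies cholesterol for storage in droplets, had 60.8, 58.8 and 56.4 CPM in DMSO and 66.8, 65.9 and 63.5 CPM in PARGi (log2 change 0.16 with an SE of 0.032, adjusted p = 0.000728 by edgeR). Its rise of 11.5% was of the size seen for the synthesis enzymes.

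Of the 5 sterol sensing and SREBP genes, 2 were higher, 1 was lower and 2 did not pass, beside 13.2% higher and 11% lower over all tested genes. INSIG1 and INSIG2 encode the membrane proteins that retain SCAP with its SREBP cargo. INSIG1, a target of SREBP, had 110.02, 105 and 93.99 CPM in DMSO and 116, 110.3 and 115 CPM in PARGi. The groups were apart by a narrow margin, with DMSO replicate 3 the lowest (log2 change 0.15 with an SE of 0.039, adjusted p = 0.00733 by edgeR), and without that library the log2 fold change was 0.082 (edgeR adjusted p = 0.0411). The INSIG1 call was at the threshold without PARGi replicate 1 (edgeR adjusted p = 0.05 after rounding) and close to it without PARGi replicate 3 (edgeR adjusted p = 0.0483). INSIG2, whose transcript is less tied to SREBP, had 23.6, 21.2 and 22.1 CPM in DMSO and 24.2, 25.9 and 24.9 CPM in PARGi. It was also higher in all PARGi libraries (log2 change 0.17 with an SE of 0.044, adjusted p = 0.00692 by edgeR), a call that was lost without PARGi replicate 2 (edgeR adjusted p = 0.0572).

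SREBF1 (chromosome 17, 17810399 to 17837002, minus strand in GENCODE 29) fell. It encodes SREBP1, the form that favours fatty acid synthesis and whose SREBP1c transcript is driven by LXR, and the gene counts do not separate its isoforms. The libraries held 170.2, 174 and 176 CPM in DMSO and 157, 154 and 154 CPM in PARGi, without overlap (log2 change -0.16 with an SE of 0.025, adjusted p = 3.42e-05 by edgeR), a fall to 0.894 times the DMSO level. SREBF2, the gene of SREBP2 itself and the one with TCACNCCAC in its promoter window, had 374, 375 and 372 CPM in DMSO and 375, 369 and 365 CPM in PARGi. These overlapped (log2 fold change -0.016, 95% confidence interval -0.064 to 0.033, edgeR adjusted p = 0.686), and the interval covers changes from -4.36% to 2.30%. SCAP, the escort of both factors, had 121, 122 and 122 CPM in DMSO and 124, 123 and 121 CPM in PARGi, and missed the threshold as well (log2 fold change 0.014, 95% confidence interval -0.039 to 0.066, edgeR adjusted p = 0.752).

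The 3 genes of export and LXR control were all lower, beside 11% of all tested genes, and 2 of them changed more than any other member. ABCA1, the pump that loads cholesterol onto apolipoprotein A-I (chromosome 9, 104781002 to 104928237, minus strand in GENCODE 29), had 10.8, 12.5 and 11.5 CPM in DMSO and 7.52, 7.24 and 7.40 CPM in PARGi. Every PARGi library was below every DMSO library by more than 3 CPM (log2 change -0.65 with an SE of 0.062, adjusted p = 3.36e-08 by edgeR), which is 1.57-fold lower. ABCG1, the pump that passes cholesterol to mature high-density particles (chromosome 21, 42199689 to 42297244, plus strand in GENCODE 29), had 16.4, 16.8 and 16.9 CPM in DMSO and 10.8, 10.8 and 10.7 CPM in PARGi. The replicates of both groups lay within about 1 CPM of each other and the groups were far apart (log2 change -0.63 with an SE of 0.048, adjusted p = 7.93e-10 by edgeR), 1.54-fold lower. A larger absolute log2 change than that of ABCG1 was found for 4.48% of the tested genes, and than that of ABCA1 for 3.99%. Both falls passed in all 15 alternatives, with log2 fold changes from -0.70 to -0.60 for ABCA1 and from -0.65 to -0.62 for ABCG1.

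MYLIP, the LXR-induced ligase that marks lipoprotein receptors for degradation, had 22.4, 20.2 and 21.4 CPM in DMSO and 19.7, 19.2 and 18.1 CPM in PARGi. Its groups were apart by a small margin (log2 change -0.17 with an SE of 0.047, adjusted p = 0.00853 by edgeR), and the call was lost without DMSO replicate 1 (edgeR adjusted p = 0.0641) and without PARGi replicate 3 (edgeR adjusted p = 0.0804). The 3 genes summed to 49.6, 49.4 and 49.7 CPM in DMSO and to 38.0, 37.3 and 36.2 CPM in PARGi, a ratio of 0.749.

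Levels can be set between genes only per length, here as CPM per kilobase of GENCODE 29 exon in DMSO. The most abundant member was SQLE (69.04 ± 2.98), followed by NPC2 (59.2 ± 0.362) and FDPS (57.4 ± 0.872), and then SREBF2 (49.5 ± 0.195) and HMGCS1 (44.8 ± 2.67). SREBF2 stood above SREBF1 (21.6 ± 0.371), and INSIG1 (28.2 ± 2.25) above INSIG2 (5.65 ± 0.318). The pumps were scarce, with ABCG1 at 2.72 ± 0.0447 and ABCA1 at 1.02 ± 0.0737, the lowest of the 30. Across the 30 genes, which share the libraries and are not replicates, the log2 fold change and the log2 level in DMSO had a Pearson's r of 0.48 and a Spearman's rho of 0.27, given as a description only.

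**Figure D3:**
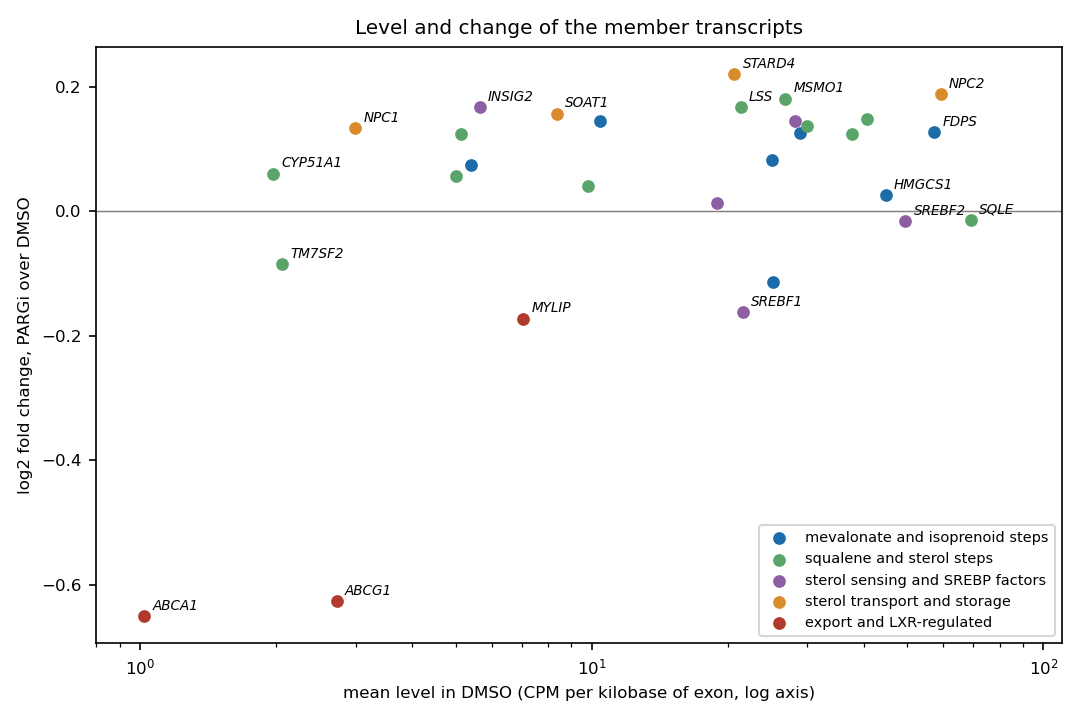
Mean level in DMSO (x axis, CPM per kilobase of exon, log axis) against log2 fold change (y axis) for the 30 genes, coloured by role. Of the 5 most abundant enzymes, SQLE and HMGCS1 lie near 0 and FDPS, DHCR7 and FDFT1 lie between 0.12 and 0.15, STARD4 is the highest point at 0.22, and ABCA1 and ABCG1 stand apart at the lower left.

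Lists of neighbouring lipid genes were set beside the members. Over all tested genes, 13.2% were higher and 11% lower, the shares against which the counts of each list stand. Of the fatty acid synthesis genes, which are mainly SREBP1 targets, 11 of 14 tested were higher and none lower, at a median log2 fold change of 0.11 (SREBF1 itself was lower). Those with the smallest p were FADS2 (457 ± 25.6 to 536 ± 9.35 CPM, log2 fold change 0.23, edgeR adjusted p = 4.37e-06), a fatty acid desaturase, FASN (658 ± 20.8 to 741 ± 5.72 CPM, log2 fold change 0.17, edgeR adjusted p = 1.51e-05), fatty acid synthase, and ACSS2 (25.4 ± 0.846 to 30.1 ± 0.817 CPM, log2 fold change 0.25, edgeR adjusted p = 4.51e-05), which makes acetyl-CoA from acetate. The count was 7 with upper-quartile scaling and 7 without PARGi replicate 2.

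Of the genes of lipoprotein uptake and sterol transport outside the 30, 6 of 14 were higher and none lower, at a median of 0.060. With upper-quartile scaling 5 were higher and 1 lower at a median of 0.036, and without DMSO replicate 1 the list had 6 higher and 1 lower. VLDLR, a lipoprotein receptor, had 16.8, 17.5 and 17.2 CPM in DMSO and 21.7, 21.8 and 22.1 CPM in PARGi, without overlap. Its rise was larger than that of STARD4 (log2 change 0.35 with an SE of 0.042, adjusted p = 1.12e-06 by edgeR). SCARB1 (53.6 ± 2.10 to 62.8 ± 1.04 CPM, log2 fold change 0.23, edgeR adjusted p = 8.02e-06), the high-density lipoprotein receptor, and LRP8 (45.5 ± 0.373 to 50.6 ± 0.576 CPM, log2 fold change 0.15, edgeR adjusted p = 0.000573), a receptor of the same family as VLDLR, had the next smallest p-values.

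The list of LXR factors and further LXR-regulated genes had a median of -0.059. Beside 13.2% higher and 11% lower over all tested genes, it had none higher and 3 of 10 lower. Among these were RXRB (87.9 ± 2.36 to 80.5 ± 0.945 CPM, log2 fold change -0.13, edgeR adjusted p = 0.00143), a partner receptor of LXR, and NR1H2 (91.99 ± 2.10 to 87.3 ± 0.611 CPM, log2 fold change -0.076, edgeR adjusted p = 0.0427), which encodes LXR beta. The call of NR1H2 was lost in 8 of 15 alternatives, DESeq2 among them, and without any single library other than DMSO replicate 2. Without DMSO replicate 3 the list had 1 higher and 2 lower at a median of -0.027, and 1 gene was also higher with the GC and length offset, alone or with the replicate block. Of the 7 genes that did not pass, 4 had log2 fold changes above 0 and 3 below, from -0.37 for PLTP to 0.15 for ABCA7.

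The 2 other lists are set beside the same shares, 13.2% higher and 11% lower over all tested genes. The first had 15.4% higher and 0% lower, and the second 7.69% each way. Among the genes that process SREBP or degrade sterol enzymes, 2 of 13 were higher, among them ERLIN1 (88.1 ± 2.29 to 93.1 ± 0.546 CPM, log2 fold change 0.080, edgeR adjusted p = 0.035), a membrane scaffold whose call was lost in 10 of 15 alternatives, among them each left-out library but DMSO replicate 3. The proteases MBTPS1 and MBTPS2 did not pass. Of the genes of the side branches to dolichol, ubiquinone and prenylated proteins, PDSS1 (17.4 ± 0.405 to 19.2 ± 0.954 CPM, log2 fold change 0.14, edgeR adjusted p = 0.032), of ubiquinone synthesis, was higher and DOLK (16.9 ± 0.752 to 14.8 ± 0.539 CPM, log2 fold change -0.18, edgeR adjusted p = 0.0076), dolichol kinase, was lower, out of 13. PDSS1 lost its call in 7 of 15 alternatives, with DESeq2 and without DMSO replicate 1, DMSO replicate 2, PARGi replicate 1 or PARGi replicate 3 among them, and without DMSO replicate 3 a second gene of the list was called lower. The medians of these lists, 0.0022 and 0.014, changed sign between alternatives, running from -0.022 to 0.0070 and from -0.011 to 0.035, with the highest side-branch value found without PARGi replicate 3.

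**Figure D4:**
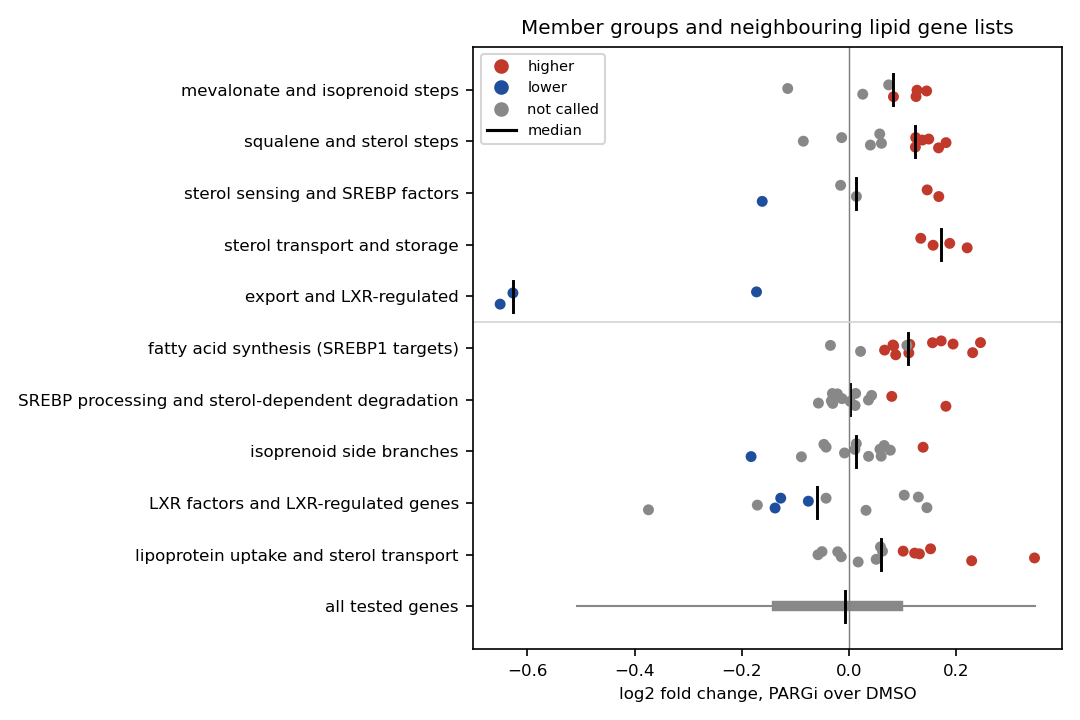
Log2 fold change (x axis) of every tested gene in the 5 role groups of the members (upper rows) and the 5 neighbouring lists (lower rows), with the median as a black bar; red is higher, blue lower and grey not called. The bottom row gives all tested genes, the thick line from the 25th to the 75th percentile (-0.13 to 0.092) and the thin line from the 5th to the 95th (-0.51 to 0.35). The export row stands alone on the left at a median of -0.63.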

How the data were processed

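RNA from 6 U2OS cultures (3 DMSO, 3 PARGi, grouped by title) was sequenced with a stranded total RNA kit, per the labels' protocols. Per gene, the authors deposited counts as whole numbers, with no normalisation. The submitters' processing notes name cutadapt 1.18, STAR 2.7.3a, SAMtools 1.9, deepTools, DESeq2 and the build hg38, with no roles; the annotation release and the strand counted are not given in the sources used here. Strand was examined on 335 genes of which at least 95% lies within exons of a highly counted gene read from the other strand. Their median count was 17, against 24630.0 for that gene. Counting that drops reads shared by 2 genes would also give low values here, so this check cannot decide whether the counts are strand-specific. Exons of 13 members overlap a gene on the opposite strand, by 1.69% to 33.9% of their length in single cases. The effect of these overlaps on the member counts was not tested.

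Identifiers were given symbols from a name table, and positions and exonic lengths from GENCODE 29 (GRCh38). The test was edgeR 4.0.16 (R 4.3.3; filterByExpr, TMM, glmQLFit, two-sided glmQLFTest on treatment alone), adjusted over all 20409 tested genes at 0.05. SEs were computed as the absolute log2 change divided by the square root of F. The scripts were tested on simulated counts with changes larger than any called rise of a member, so recovery of rises of that size was not tested. No library duplicated another: chi-square per degree of freedom was at least 2.27. Alternatives were DESeq2 1.42.0, DESeq2's size factors, upper-quartile scaling, no count filter, a minimum of 10 counts per library, only protein-coding genes, the replicate number as a block, a loess offset on GC content and length (span 0.3), both together, and each library left out. Figures used matplotlib 3.10.9.

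The members and lists were chosen with earlier results of these data known. All members are given, those past the threshold with every library; from each neighbouring list, at most 3 called genes in each direction with the smallest p are named, and PLTP, ABCA7, MBTPS1 and MBTPS2 were added after their values were seen. Some genes of these lists are not reported here by name.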

Additional observations from a re-analysis of the deposited data

How the results depend on the processing

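Of the 20 called members, 15 stayed past the threshold in every one of the 15 alternatives, INSIG1 only just (edgeR adjusted p = 0.05 after rounding without PARGi replicate 1). The exceptions, ACAT2, IDI1, HSD17B7, INSIG2 and MYLIP, kept their direction in all. The count of higher members ran from 13 to 16 and that of lower members from 3 to 5 with 1 library left out, and DESeq2 gave 15 and 4. The median log2 fold change of the members, 0.10, was 0.079 with upper-quartile scaling, which moved the median of all genes from -0.0070 to -0.032, with a low of 0.078 when DMSO replicate 3 was left out and a high of 0.11 when DMSO replicate 1 was. With the replicate number as a block, 16 members were higher and 4 lower at a median of 0.10, and the block changed no call of a member. Same-numbered libraries did not deviate together (r from -0.042 to 0.0075). This does not show whether they were grown or prepared together, which the labels do not say. With the block and the GC and length offset, 15 were higher and 4 lower. The sign changed only for members that never passed: without DMSO replicate 3 the log2 fold changes of HMGCS1, EBP and SC5D were -0.025, -0.0017 and -0.018 (up to 0.051, 0.10 and 0.081 with another library left out), that of SQLE was 0.017 without DMSO replicate 1 (down to -0.044 with another left out), that of CYP51A1 was -0.0049 without PARGi replicate 3 (up to 0.096), and that of SCAP was -0.011 with upper-quartile scaling and -0.0016 with protein-coding genes alone. PMVK passed as lower with upper-quartile scaling, without the count filter, with protein-coding genes alone and without DMSO replicate 2. The cause of these shifts was not tested.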
